A study of Mus musculus with 16 samples.

Results

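The genes described here are 45 genes of the cell cycle, chosen by symbol, among 18566 genes and unnamed transcripts that could be tested on 16 one-colour arrays of brushed mouse airway epithelium. They comprised 15 genes of DNA replication, 22 genes of mitosis and 8 regulators. The study crossed genotype with allergen in FVB mice. The ko_OVA and wt_OVA groups were sensitized with 20 ug of ovalbumin (OVA), a chicken egg protein, by injection into the peritoneum on days 1, 4 and 7, and then given 10 ug through the nose weekly for 9 weeks. The ko_saline and wt_saline groups had saline in its place, and tissue was collected 24 h after the final dose. The ko mice carried a knockout of Itgb6, which encodes the integrin subunit beta6, and the wt mice were wild type; all were 6 to 8 weeks old when sensitization began. Each of the 4 groups had 4 arrays. The labels do not say whether RNA of several mice was pooled for an array, so the p-values measure the spread between these samples.

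Of the 45 genes, 44 had a matched probe and 43 were tested. Ccnd1 is named only, and the single probe of Ttk, a kinase of the spindle checkpoint, was too dim on all but 2 arrays. The tested members were 15 genes of DNA replication, 21 of mitosis and 7 regulators. Levels are given as log2 ratios of a signal to the upper quartile (75th percentile) of its own array, so a difference of 1 is a doubling. Signals under a common floor of -3.32 were set to it. The level stayed above the floor on all 16 arrays for 30 members, 13 of DNA replication, 12 of mitosis and 5 regulators, and lay at the floor on at least 1 array for the other 13. Cdc45, Kif11, Ccne2 and Aurkb each left the floor on 1 array only. Of 14 members with several probes, Mki67 and Tyms had a second probe above background on all 16 arrays, which followed the first with a Pearson's r of 0.95 and 0.91.

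Cells that divide switch on these genes in waves. At the border of G1 and S phase, E2F transcription factors turn on the enzymes that make DNA precursors and the proteins that license and copy the genome. Later, in G2, a second set of genes for the spindle, the kinetochore and cell separation is turned on. This works through an element called CHR (cell cycle genes homology region), which then binds the MuvB complex with B-MYB and FOXM1. CCAAT boxes bound by NF-Y often lie beside CHR. The airway epithelium is a slowly renewing tissue, in which basal and secretory cells divide, and allergen exposure is one setting in which renewal is studied. In a bulk sample, fewer dividing cells and less RNA per dividing cell cannot be told apart.

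The promoters of the members followed these classes in part, with exceptions in both. RefSeq windows of 300 bases (250 before and 50 after the annotated start, GRCm38.p6) were present for 36 of the 45 genes, and they were searched on both strands for the E2F motif (spelled TTCCCGC or with the middle letters changed, as TTCGCGC or as TTGCCGC or as TTGGCGC), for CHR (TTTGAA or TTCGAA) and for CCAAT. An E2F match of the form TTGGCGC can share bases with CCAAT on the other strand. The E2F motif was found in 8 of 13 DNA replication genes (61.5%) and 2 of 19 mitosis genes, against 10.9% of all 27025 genes with a window. CHR ran the other way, with 3 of 13 DNA replication genes (23.1%) and 15 of 19 mitosis genes (78.9%), against 21.7% of all genes. CHR together with CCAAT was present in the same 3 and 15 genes, against 9.65% of all genes. These counts describe letters in a window, not bound sites.

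The 5 windows printed here show both arrangements in the 150 bases before the start. Prc1 (chr7:80294326-80294475 on the plus strand), which bundles the microtubules of the central spindle, and Cdc20 (chr4:118437344-118437493 on the minus strand), which activates the anaphase-promoting complex, stand for mitosis. Mcm5 (chr8:75109359-75109508 on the plus strand), a subunit of the replicative helicase, and Rrm1 (chr7:102441545-102441694 on the plus strand), the large subunit of ribonucleotide reductase, stand for DNA replication. These 4 were the 2 genes per class whose levels followed Mki67 most closely among those with CHR and CCAAT, or with E2F, in these bases, and Mki67 (chr7:135716380-135716529 on the minus strand), which encodes the proliferation marker Ki-67, carries all 3 motifs. Sequences are from RefSeq, on GRCm38.p6, written from 5′ to 3′ along the gene, with each motif in capitals on whichever strand it was found.
Prc1: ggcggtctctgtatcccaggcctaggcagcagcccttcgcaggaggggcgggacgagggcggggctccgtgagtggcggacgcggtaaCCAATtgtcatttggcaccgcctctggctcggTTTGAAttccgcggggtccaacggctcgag
Cdc20: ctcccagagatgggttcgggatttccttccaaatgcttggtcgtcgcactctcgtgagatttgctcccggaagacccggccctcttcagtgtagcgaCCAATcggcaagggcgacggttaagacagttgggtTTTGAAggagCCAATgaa
Mcm5: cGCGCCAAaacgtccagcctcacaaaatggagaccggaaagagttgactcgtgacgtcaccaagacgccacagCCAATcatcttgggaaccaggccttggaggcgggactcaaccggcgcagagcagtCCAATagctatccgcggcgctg
Rrm1: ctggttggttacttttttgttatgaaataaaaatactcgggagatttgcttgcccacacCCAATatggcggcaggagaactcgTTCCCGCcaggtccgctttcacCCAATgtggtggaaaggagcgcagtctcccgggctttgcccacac
Mki67: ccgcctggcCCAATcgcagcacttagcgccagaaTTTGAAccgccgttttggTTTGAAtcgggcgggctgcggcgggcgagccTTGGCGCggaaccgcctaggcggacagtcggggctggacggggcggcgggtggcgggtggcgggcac
Prc1 shows 1 CCAAT and 1 CHR, and Cdc20 has 1 CHR with 2 CCAAT. Mcm5 and Rrm1 each have 1 E2F motif and 2 CCAAT, and no CHR in these bases.

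Itgb6 itself gave signal on every array, from -1.71 to -0.96 in ko_OVA, -1.02 to -0.73 in ko_saline, -0.64 to -0.56 in wt_OVA and -0.93 to -0.39 in wt_saline. The genotypes overlapped after saline and not after OVA, and the files do not place its probe inside or outside the disrupted part, so it does not check the labels of single arrays. The 75th percentile ran from 78.0 intensity units (ko_OVA 4) to 793 (ko_saline 3), and the share of probes well above background from 43.3% to 74.5%. A list of 8 airway epithelial markers averaged 5.85 to 7.12 over the arrays, whereas the 6 measured T cell markers averaged -3.14 to -1.80, near the floor. The mast cell list (6 of 8 measured) separated the genotypes, with 2.97 to 3.57 in ko_OVA, 2.86 to 3.08 in ko_saline, 0.66 to 1.20 in wt_OVA and -1.40 to -0.56 in wt_saline. The arrays lay on 4 slides, 1 of which was scanned apart from the others, and no slide held all 4 arrays of a group.

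One array stood apart for these genes. The second array of the wt_saline group (wt_saline 2) had the highest level for 34 of the 43 tested members. Among the 30 members above the floor on every array it was the highest for 25, including 10 of 12 mitosis genes and 11 of 13 DNA replication genes, whereas it was the highest for 8.44% of all 13052 genes above the floor on every array. At the other end, wt_OVA 2 was the lowest for 11 of the 30 members and wt_saline 3 for 9. The 75th percentile of wt_saline 2 was 129 intensity units, 47.8% of its probes were well above background, and its airway epithelial list was the highest of the 16 arrays at 7.12; their part in the result was not tested. Changes below that involve wt_saline are also given without wt_saline 2 where this turned their sign or moved them by over 1.5 times, and no member was called in any comparison without it.

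**Figure D1:**
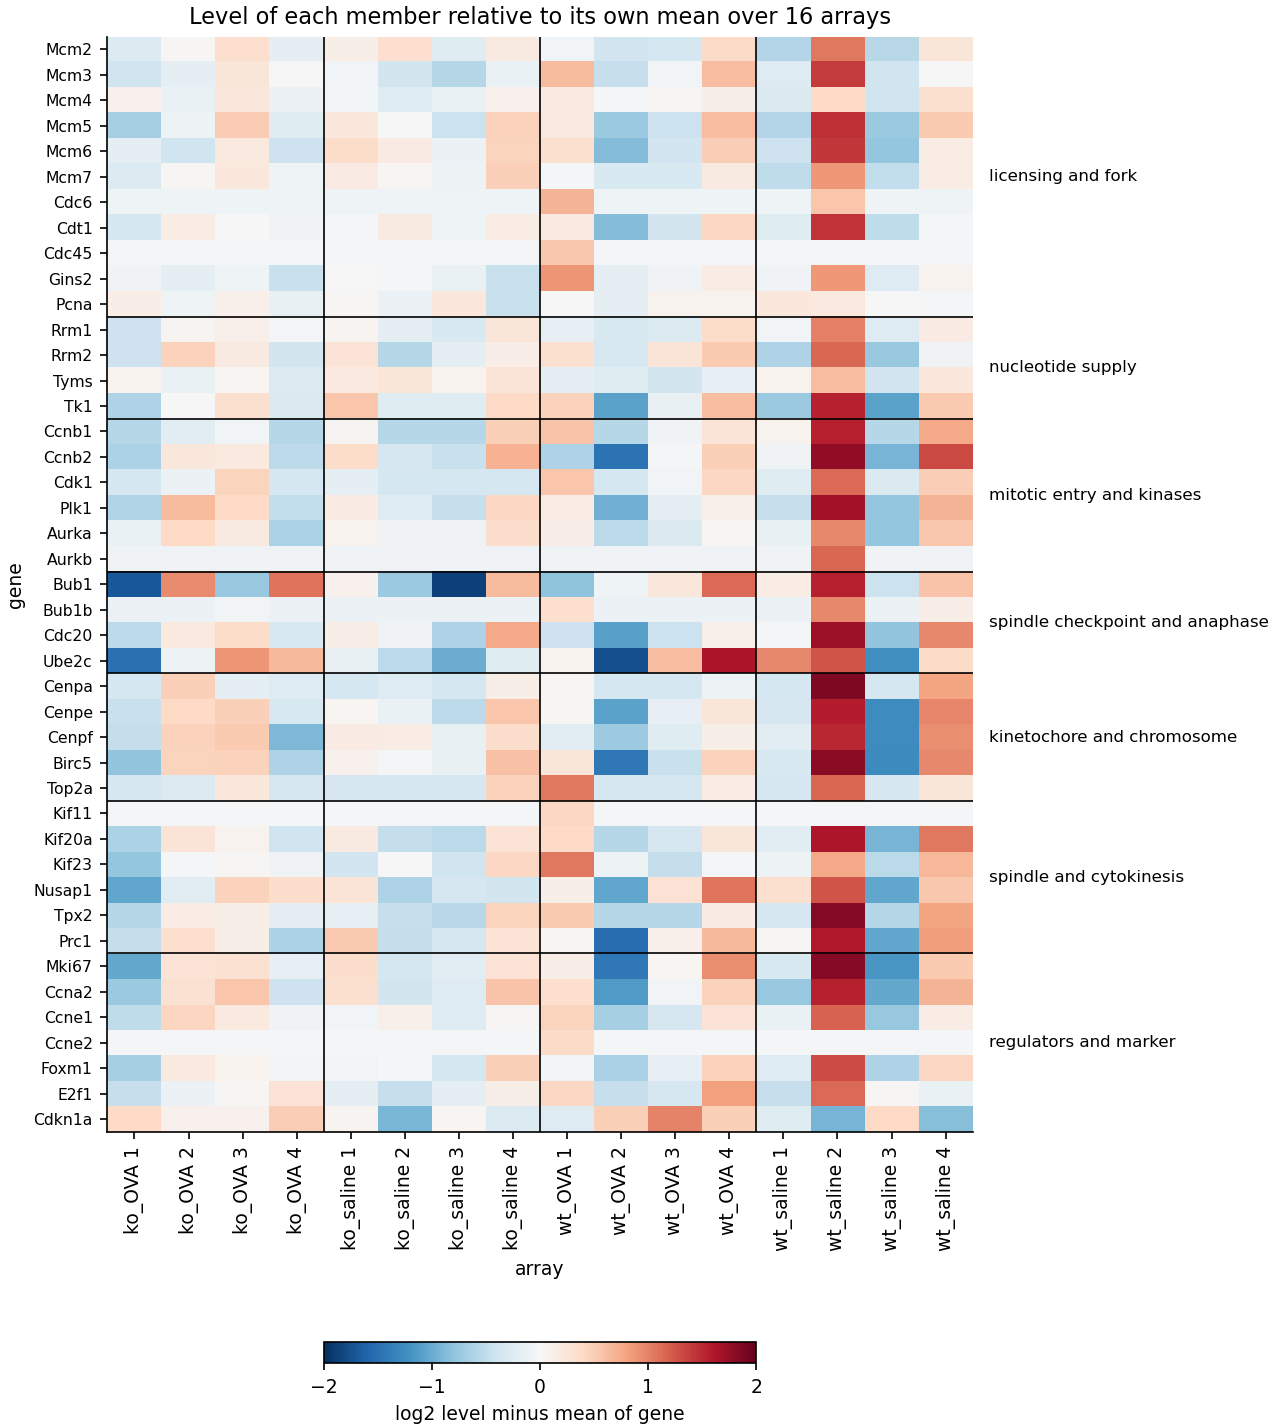
Level of each of the 43 tested members (rows, by role) on each of 16 arrays (columns, by group), as the difference in log2 level from the gene's own mean over the arrays. The column of wt_saline 2 is the reddest, with the highest level for 34 members. Pale rows are genes that varied little, either at the floor on most arrays or, as Pcna and Mcm4, above it on every array.

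Mki67 showed this pattern. It read -0.73, 0.56, 0.59 and 0.13 on the 4 ko_OVA arrays, 0.63, -0.06, 0.08 and 0.58 in ko_saline, 0.42, -1.14, 0.32 and 1.21 in wt_OVA, and -0.01, 2.11, -0.87 and 0.81 in wt_saline. All groups overlapped, and the highest and the second lowest of the 16 values both came from wt_saline. The range over the 16 arrays was 9.52-fold. The fitted difference of wt_OVA from wt_saline was -0.31 ± 0.57 (SE, 95% interval -1.54 to 0.92), so the data allow a change of either sign, and without wt_saline 2 it was 0.22 ± 0.52.

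The licensing and fork genes encode the helicase, its loaders and the sliding clamp. Mcm6, a helicase subunit, read 2.58, 2.38, 2.98 and 2.36 in ko_OVA, 3.14, 2.94, 2.66 and 3.23 in ko_saline, 3.11, 1.91, 2.40 and 3.27 in wt_OVA, and 2.37, 4.20, 2.01 and 2.94 in wt_saline. The wt_saline arrays held both the highest value and one of the lowest, and all groups overlapped. Pcna, the sliding clamp of DNA polymerase, behaved otherwise, with 3.65, 3.43, 3.62 and 3.37 in ko_OVA, 3.54, 3.41, 3.72 and 3.08 in ko_saline, 3.52, 3.33, 3.60 and 3.59 in wt_OVA, and 3.73, 3.71, 3.53 and 3.50 in wt_saline. Its values lay within a 1.57-fold range, and wt_saline 2 did not stand out. Cdc45, which joins the active helicase, was at the floor on 15 arrays and read -2.74 on wt_OVA 1.

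The genes of nucleotide supply encode both subunits of ribonucleotide reductase, thymidylate synthase and thymidine kinase. Rrm1 read 0.74, 1.22, 1.26 and 1.14 in ko_OVA, 1.21, 0.98, 0.86 and 1.40 in ko_saline, 0.99, 0.85, 0.89 and 1.53 in wt_OVA, and 1.11, 2.17, 0.90 and 1.33 in wt_saline. Only its wt_saline 2 value lay above 1.53. Tyms, thymidylate synthase, read 1.52, 1.32, 1.48 and 1.17 in ko_OVA, 1.64, 1.68, 1.52 and 1.70 in ko_saline, 1.25, 1.21, 1.09 and 1.28 in wt_OVA, and 1.52, 2.06, 1.06 and 1.67 in wt_saline. OVA arrays were mostly below saline arrays in both genotypes, yet wt_saline 3 had the lowest value of all. Tk1, thymidine kinase, spanned 6.11-fold over the arrays.

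Among the genes of mitotic entry, Ccnb2, a B-type cyclin that activates Cdk1, read -0.81, 0.05, 0.01 and -0.70 in ko_OVA, 0.19, -0.51, -0.62 and 0.52 in ko_saline, -0.79, -1.66, -0.19 and 0.30 in wt_OVA, and -0.25, 1.59, -1.11 and 1.14 in wt_saline. Its largest values were those of wt_saline 2 and wt_saline 4. Ccnb1, the other B-type cyclin here, was near the floor, between -3.32 and -2.81 in ko_OVA, -3.32 and -2.28 in ko_saline, -3.32 and -2.18 in wt_OVA, and -3.32 and -1.19 in wt_saline. Aurkb, the kinase of the chromosomal passenger complex, left the floor on wt_saline 2 alone, at -2.10.

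Among the checkpoint and anaphase genes, Cdc20 read 0.98, 1.69, 1.86 and 1.19 in ko_OVA, 1.63, 1.42, 0.88 and 2.25 in ko_saline, 1.08, 0.41, 1.07 and 1.59 in wt_OVA, and 1.47, 3.21, 0.71 and 2.45 in wt_saline. Its highest value was again that of wt_saline 2, and the groups overlapped. Bub1b, a checkpoint kinase, was above the floor on 4 arrays and highest on wt_saline 2, at -2.24. Ube2c and Bub1, a ubiquitin-conjugating enzyme of anaphase and a checkpoint kinase, had the widest spans of all members, 3.39 and 3.42 on the log2 scale. A second Bub1 probe averaged -3.28, near the floor, and followed the probe used with an r of 0.41.

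Kinetochore and chromosome genes included Birc5 (survivin), of the passenger complex, which read 0.02, 1.26, 1.26 and 0.19 in ko_OVA, 0.90, 0.78, 0.66 and 1.39 in ko_saline, 1.05, -0.62, 0.37 and 1.28 in wt_OVA, and 0.50, 2.62, -0.46 and 1.77 in wt_saline. Cenpf, a kinetochore protein, ran from -2.19 to -0.76 in ko_OVA, -1.44 to -0.93 in ko_saline, -2.02 to -1.17 in wt_OVA and -2.54 to 0.22 in wt_saline. Both genes were highest on wt_saline 2. Top2a, the topoisomerase that untangles chromosomes, read -3.32, -3.27, -2.78 and -3.32 in ko_OVA, -3.32, -3.32, -3.32 and -2.52 in ko_saline, -1.93, -3.32, -3.32 and -2.84 in wt_OVA, and -3.32, -1.84, -3.32 and -2.75 in wt_saline. It left the floor on 7 arrays, and its highest value was again that of wt_saline 2.

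Of the spindle and cytokinesis genes, Prc1 read -1.01, -0.19, -0.41 and -1.16 in ko_OVA, 0.00, -1.01, -0.86 and -0.26 in ko_saline, -0.50, -2.05, -0.42 and 0.12 in wt_OVA, and -0.51, 1.07, -1.57 and 0.31 in wt_saline. Its extremes, wt_saline 2 and wt_OVA 2, were those of Mki67. Kif11, a spindle motor, was above the floor on wt_OVA 1 only.

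Regulators split in direction. Foxm1, the transcription factor of the G2 genes, ran from -3.19 to -2.32 in ko_OVA, -2.87 to -2.03 in ko_saline, -3.16 to -2.05 in wt_OVA and -3.13 to -1.22 in wt_saline. Cdkn1a, an inhibitor of cyclin-dependent kinases, read 0.53, 0.21, 0.21 and 0.61 in ko_OVA, 0.18, -0.78, 0.16 and -0.14 in ko_saline, -0.13, 0.60, 1.12 and 0.61 in wt_OVA, and -0.11, -0.80, 0.52 and -0.73 in wt_saline. It was lowest on wt_saline 2, where the proliferation genes were highest, and its ko_OVA and ko_saline arrays did not overlap.

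**Figure D2:**
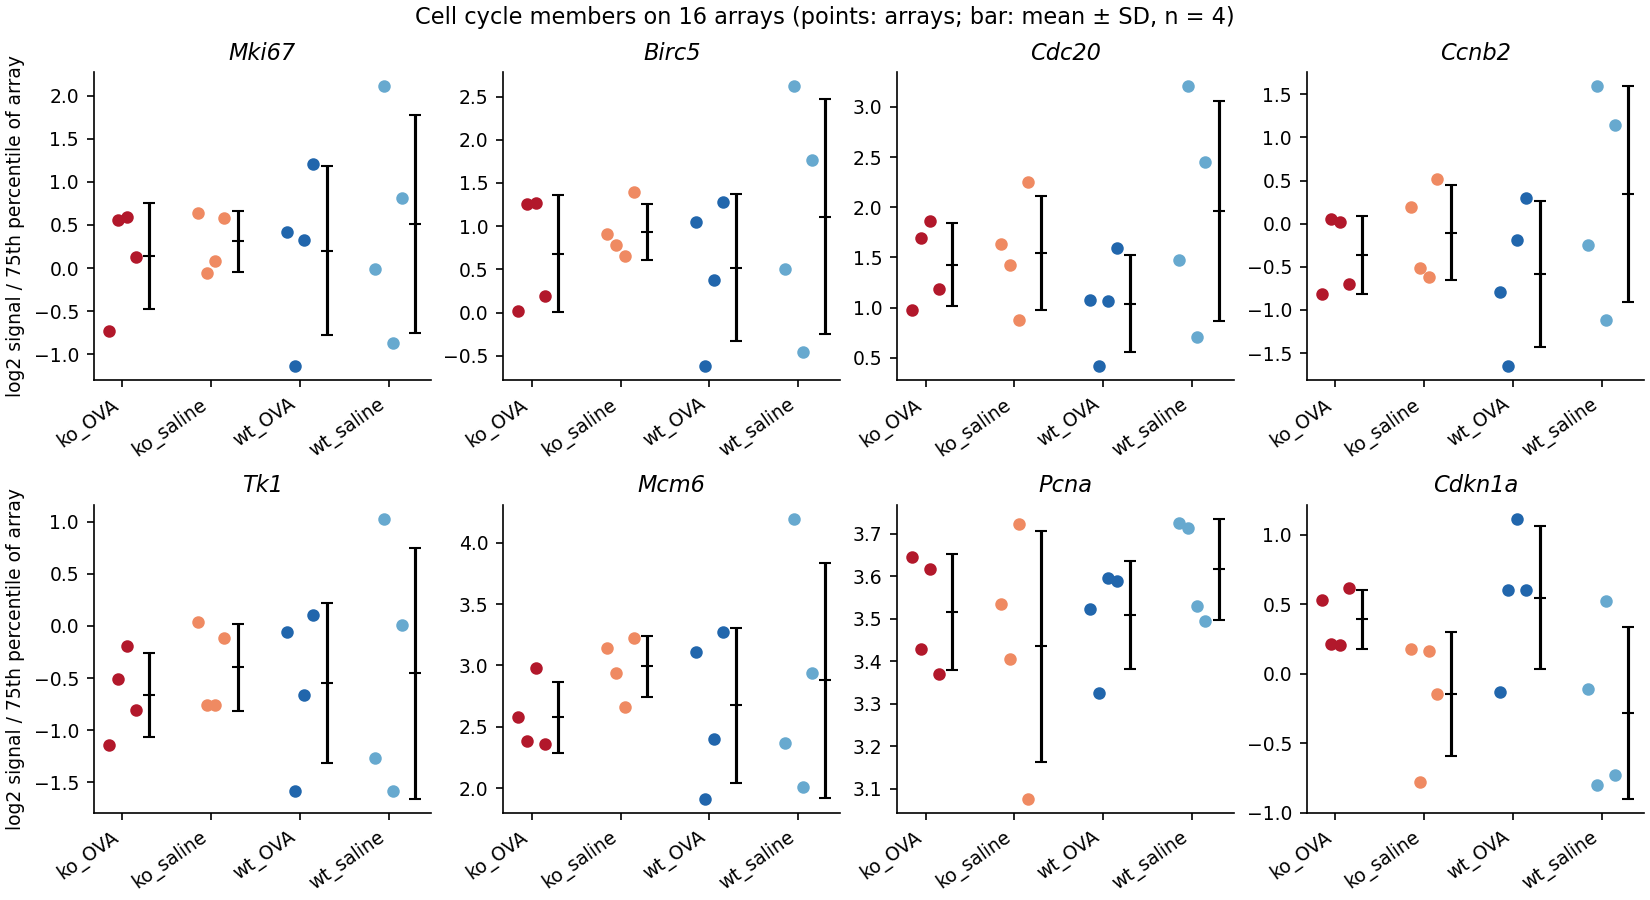
Log2 level of 8 members on each array (points) in the 4 groups, with the group mean and SD (n = 4) beside the points; each panel has its own axis, and that of Pcna spans under 1 unit. Groups overlap in every panel except ko_OVA against ko_saline for Cdkn1a.

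The comparisons of OVA with saline asked whether repeated allergen changes the expression of the proliferation genes. No member was called in wt mice by limma at an adjusted p below 0.05, where 2.61% of all genes tested were called, and none in ko mice, where 0.749% were. At an unadjusted p below 0.05 there were 2 members in wt, Cdkn1a and Tyms (16.5% of all genes), and 0 in ko (9.73%). The arrays of OVA and saline did not overlap for 0 members in wt (9.28% of all genes) and 0 over both genotypes (1.15%). Pooled over both genotypes, 0 members were called against 6.46% of all genes, and 2 had an unadjusted p below 0.05 against 19.7%. There, 31 of 43 members had a lower mean after OVA, against 46.9% of all genes; without wt_saline 2 it was 18 of 43. The shares of members called, with an unadjusted p below 0.05 or without overlap in these comparisons were below those of all genes, and the members above the floor mostly varied more between arrays than the median gene.

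The nearest to a call was Cdkn1a, higher after OVA by 0.68 ± 0.22 (SE) over both genotypes, with a limma adjusted p of 0.0856. In wt it was higher by 0.83 ± 0.31 (adjusted p = 0.193) and in ko by 0.54 ± 0.31 (adjusted p = 0.667), and it was the single member whose arrays did not overlap in ko, against 5.23% of all genes. Tyms differed by -0.37 ± 0.16 in wt (adjusted p = 0.256) and by -0.32 ± 0.11 over both genotypes (adjusted p = 0.116). Without wt_saline 2 the change of Tyms in wt was smaller, at -0.21 (adjusted p = 0.531), and over both genotypes it was -0.24 (adjusted p = 0.167). Cdkn1a then differed by 0.65 in wt (adjusted p = 0.420) and by 0.60 over both genotypes (adjusted p = 0.167). Without wt_saline 3, Cdkn1a over both genotypes (0.82, adjusted p = 0.0278), Tyms over both (-0.40, adjusted p = 0.0152) and Tyms in wt (-0.54, adjusted p = 0.0375) passed the threshold. Within the 3 slides that held both wt groups, Cdkn1a differed by 1.33, 0.72 and -0.03, and within the 3 that held both ko groups by 0.35, 0.35 and 0.52. In this and the later comparisons within slides, a slide held only 1 or 2 arrays of each group compared.

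The mitosis genes had mostly lower means after OVA in wt, none of them past the test, and the size of their median turned on single wt_saline arrays. Of 21 tested, 20 had a lower mean in wt_OVA than in wt_saline, with a median log2 change of -0.41, and 10 of 15 DNA replication genes had a lower mean, with a median of -0.11; 48.7% of all genes were lower, with a median of 0.00. Among single genes, Ccnb2 differed by -0.93 ± 0.55 (adjusted p = 0.434), Cdc20 by -0.92 ± 0.46 (adjusted p = 0.340) and Cenpa, the centromeric histone, by -0.68. Without wt_saline 2 these 3 differences were -0.51, -0.50 and -0.22. Cenpa was above the floor on 9 of 16 arrays. The mitosis median without wt_saline 2 was -0.03 with 12 of 21 lower, and 12 of 15 DNA replication genes then had a higher mean, with a median of 0.19. Without wt_saline 3, the array with low levels, the mitosis median was -0.75. Within slides, the mitosis median was -1.36 (wt_OVA 2 against wt_saline 4), 0.48 and 0.70, so its sign was not the same on the 3 slides. The slide of wt_saline 2 held no wt_OVA array and is not among them.

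**Figure D3:**
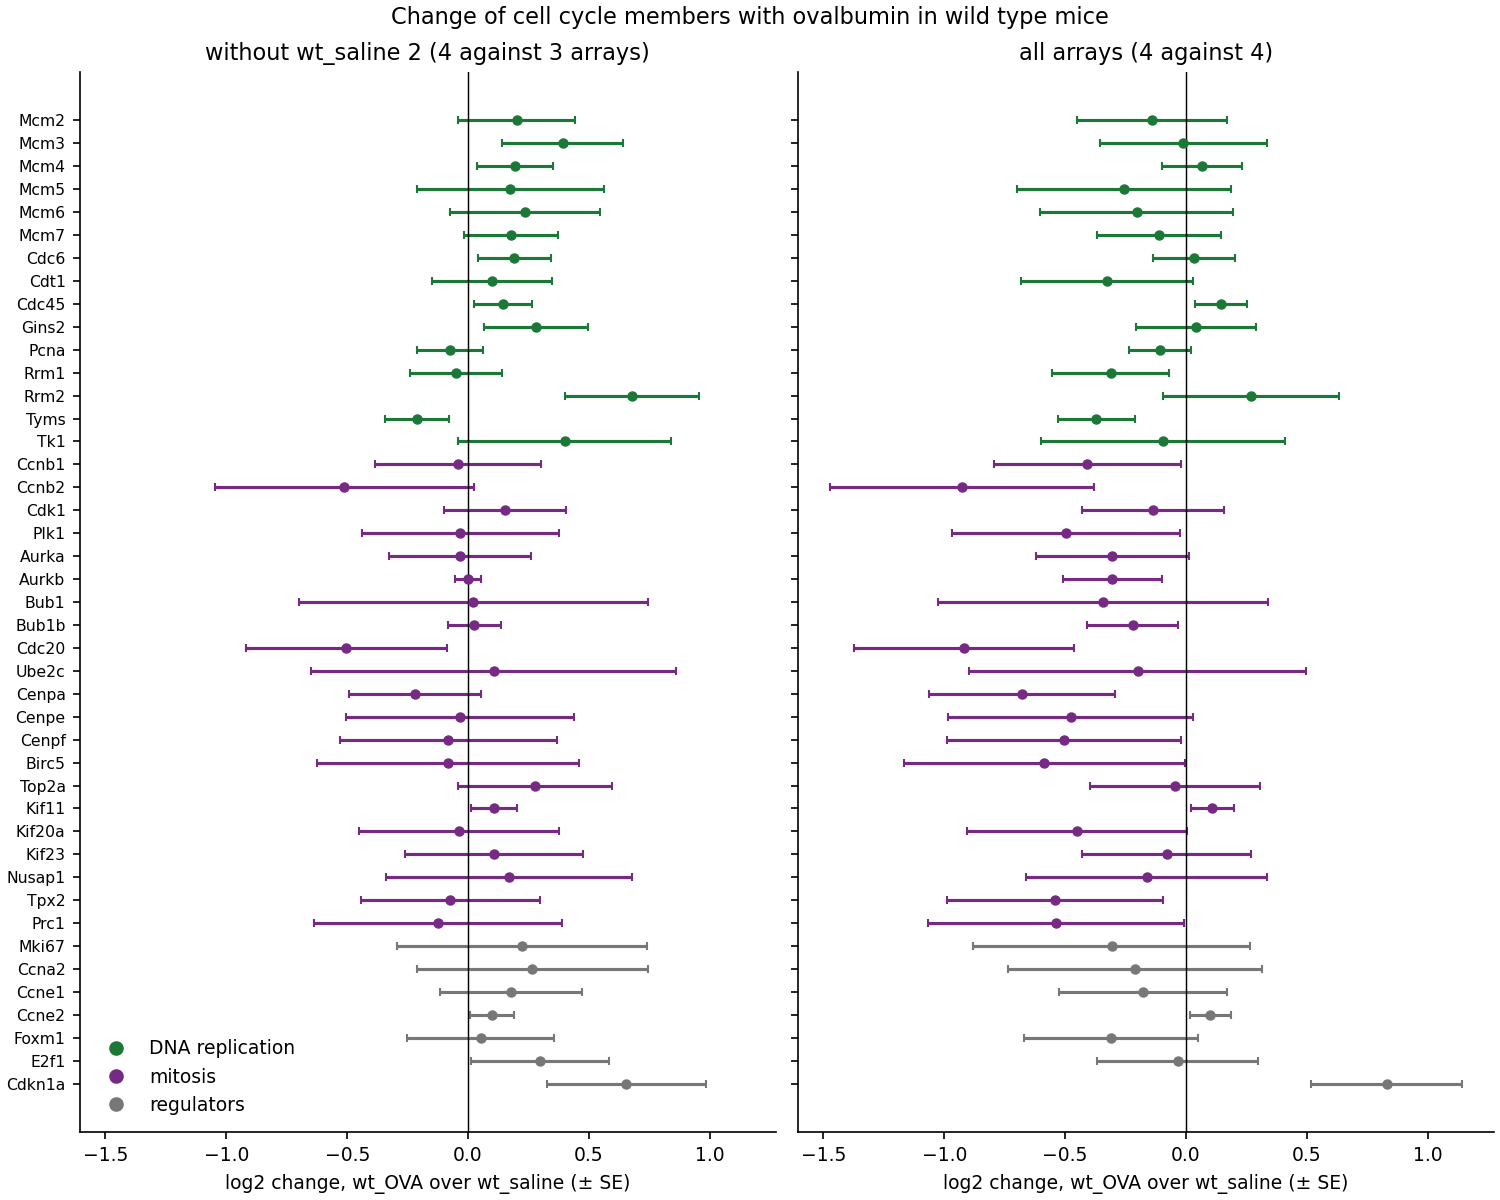
Log2 change of each tested member in wt_OVA against wt_saline with its SE, without wt_saline 2 (left) and with all arrays (right), coloured by class. The mitosis genes centre on -0.03 in the left panel and on -0.41 in the right one, and Cdkn1a lies to the right of 0 in both.

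In ko mice the medians of the same comparison were 0.00 for mitosis, with 9 genes higher and 10 lower, and -0.04 for DNA replication, with 4 higher and 9 lower; 42.7% of all genes were lower. Within slides, the ko mitosis median was -0.15, -0.61 and 0.54. No member passed the interaction test of genotype with OVA (0% of all genes passed it, and 3.06% had an unadjusted p below 0.05, against 0 members). The interaction was below 0 for 12 of 43 members (48.3% of all genes) and, without wt_saline 2, for 30 of 43, and its median over the mitosis genes was 0.35 with all arrays and 0.00 without wt_saline 2.

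The comparison of ko with wt asked whether the loss of Itgb6 alters proliferation genes with or without allergen. No member was called after saline (0.162% of all genes), after OVA (0.145%) or over both agents (0.269%), and none had an unadjusted p below 0.05 in these comparisons (6.3%, 5.08% and 7.77% of all genes). The arrays of ko and wt overlapped for every tested member in all 3 comparisons (4.05%, 2.37% and 0.194% of all genes did not overlap). After saline, 20 of 21 mitosis genes had a lower mean in ko than in wt, with a median of -0.36, and the DNA replication genes had a median of -0.10; 47.1% of all genes were lower. Without wt_saline 2 these medians were -0.03 and 0.22. The largest differences were those of Bub1, Ube2c and Cenpa, at -0.93, -0.82 and -0.70, and without wt_saline 2 they were -0.57, -0.51 and -0.24. With all arrays the second Bub1 probe, near the floor, differed by -0.15, and Cenpa was above the floor on 9 of 16 arrays. Within slides the mitosis median was -0.34, 0.05 and -1.90, and the last is from the slide whose only wt_saline array was wt_saline 2. After OVA the medians were -0.01 for mitosis and -0.06 for DNA replication, with 11 of 21 and 9 of 15 lower (48.6% of all genes), and within slides the mitosis median was 0.72, -0.75 and -0.25. Over both agents 36 of 43 members had a lower mean in ko, against 52.8% of all genes; without wt_saline 2 it was 21 of 43. The comparisons of each genotype and agent share groups, so their values are not independent.

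Scaling moved these medians. With each array scaled to its median in place of its 75th percentile, the median of all genes itself shifted to -0.25 for OVA in wt and to 0.32 for ko against wt after OVA. The mitosis median was then -0.67 for OVA in wt (20 of 20 tested lower) and 0.26 for ko against wt after OVA (17 of 20 higher), so the second median changed sign. Both lay below the median of all genes, so the change of sign and these counts include the shift of all genes.

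DNA replication and mitosis genes differed in how widely they varied. Over the members above the floor on every array, the median SD across the 16 arrays was 0.42 for DNA replication and 0.71 for mitosis, against 0.25 for all genes. Without wt_saline 2 the medians were 0.33, 0.59 and 0.25. The classes also differed in brightness, with a median level of 1.02 for these DNA replication genes and -0.60 for these mitosis genes. The part of brightness in the spread was not tested. The DNA replication genes ran from Pcna, at 0.17, to Tk1, at 0.70, and the mitosis genes from Aurka, a spindle pole kinase, at 0.44, to Ube2c, at 1.00. Pcna varied less than most genes, as 15% of all genes had a smaller SD, while 98.6% had a smaller SD than Ube2c.

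**Figure D4:**
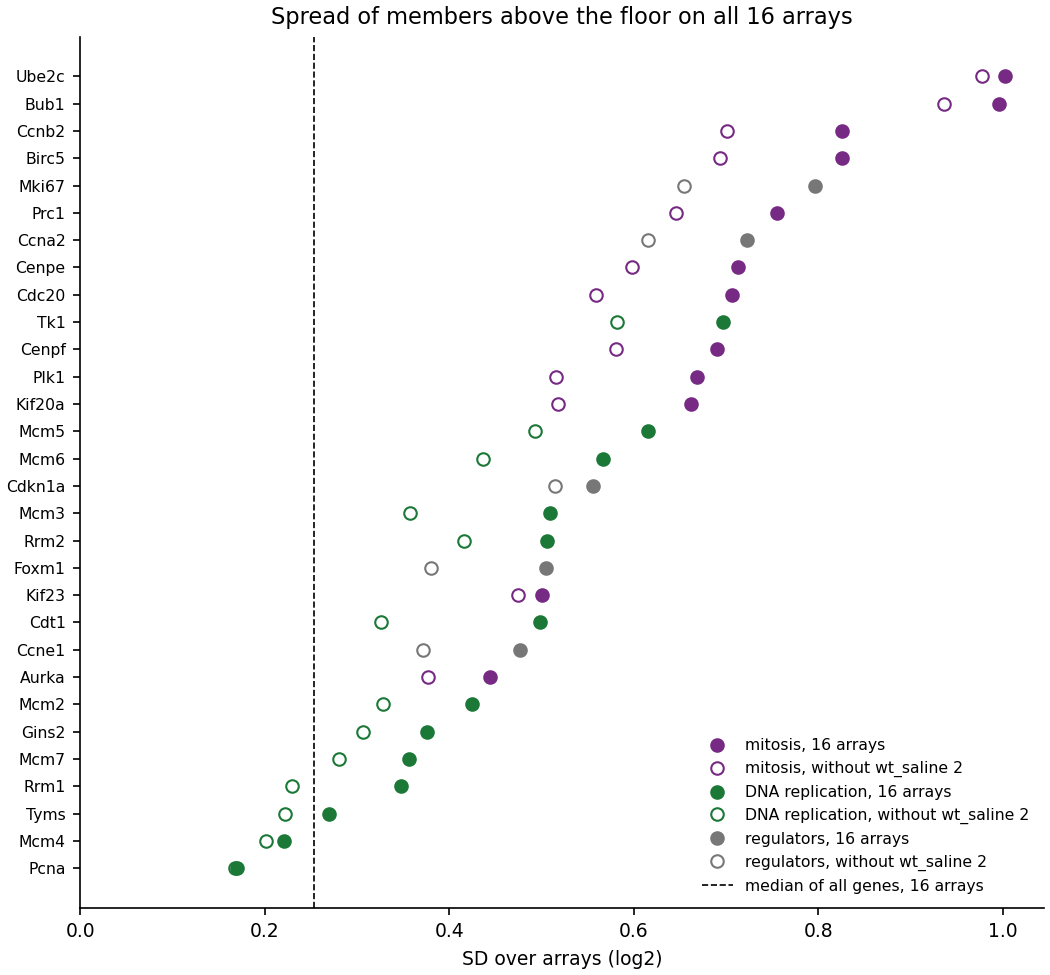
SD of the log2 level over 16 arrays (filled) and over 15 arrays without wt_saline 2 (open) for the 30 members above the floor on every array, ordered by SD, with the median of all genes as a dashed line at 0.25. Mitosis genes lie mostly at the top and DNA replication genes mostly at the bottom, and Pcna, Mcm4 and Tyms lie nearest the line or below it.

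The mean of each class on an array, with every gene centred on its own mean, gave the same contrast by group. For the 12 mitosis genes above the floor it ran from -0.72 to 0.35 in ko_OVA, -0.55 to 0.42 in ko_saline, -0.94 to 0.43 in wt_OVA and -0.94 to 1.48 in wt_saline. For the 13 DNA replication genes it ran from -0.26 to 0.18 in ko_OVA, -0.18 to 0.14 in ko_saline, -0.46 to 0.34 in wt_OVA and -0.51 to 1.03 in wt_saline. The difference of DNA replication minus mitosis over all tested members averaged 0.03 ± 0.23 (SD, n = 4) in ko_OVA, 0.11 ± 0.19 in ko_saline, 0.08 ± 0.16 in wt_OVA and -0.22 ± 0.34 in wt_saline. These group means lie within the spread of single arrays, and a score over chosen genes was given no test.

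Levels of most members moved together across arrays. Pearson's r with Mki67 over the 16 arrays was 0.95 for Tk1 (Spearman's rho 0.95), 0.95 for Ccna2, the cyclin of S and G2 phase (rho 0.93), 0.95 for Prc1 (rho 0.95), 0.94 for Foxm1 (rho 0.86), 0.94 for Birc5 (rho 0.90) and 0.92 for Mcm5 (rho 0.93). The permutation p of each r was 1e-05, the smallest that 100000 resamples can give, and 3.5e-05 after Benjamini-Hochberg adjustment over 42 relations. Without wt_saline 2 and wt_OVA 2, the 2 arrays farthest from the median of Mki67, r was 0.91 for Tk1, 0.89 for Prc1 and 0.87 for Birc5. It fell below 0.8 for other members, among them Mcm6 and Cdc20 (0.69 each) and Mcm3 (0.67). With group and slide means removed r was 0.96 for each of Tk1, Prc1 and Birc5. Over all 16 arrays, an r of at least 0.8 was reached by 9 of 15 DNA replication genes, 13 of 21 mitosis genes and 3 of 6 other regulators, against 0.401% of 17949 genes, and none of those genes had a higher r than Tk1. These counts include wt_saline 2 and wt_OVA 2, and not every gene in them kept such an r without the 2 arrays. All points share the array's labelling and scaling.

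Some members did not follow Mki67. For Pcna r was 0.19 (rho 0.11, permutation p = 0.473, adjusted 0.509) and for Cdkn1a it was -0.45 (rho -0.30, permutation p = 0.0829, adjusted 0.0941). Without the 2 farthest arrays the r of Cdkn1a was -0.15. Tyms reached 0.55 (rho 0.42, permutation p = 0.0261, adjusted 0.0323). Its r was 0.20 without the 2 farthest arrays and 0.64 with group and slide means removed. Cdc45, Ccne2 and Kif11 left the floor on wt_OVA 1 alone, and their r of 0.04 carries no information. Among 13 array properties set against Mki67, the log2 of the 75th percentile had r = -0.54 (rho -0.48, permutation p = 0.0278, adjusted 0.318), and -0.72 with group and slide means removed. The share of probes well above background had r = -0.46, the red blood cell list 0.46, the airway epithelial list 0.32 and the basal cell list 0.29, each with an adjusted p of 0.318 or more by permutation.

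**Figure D5:**
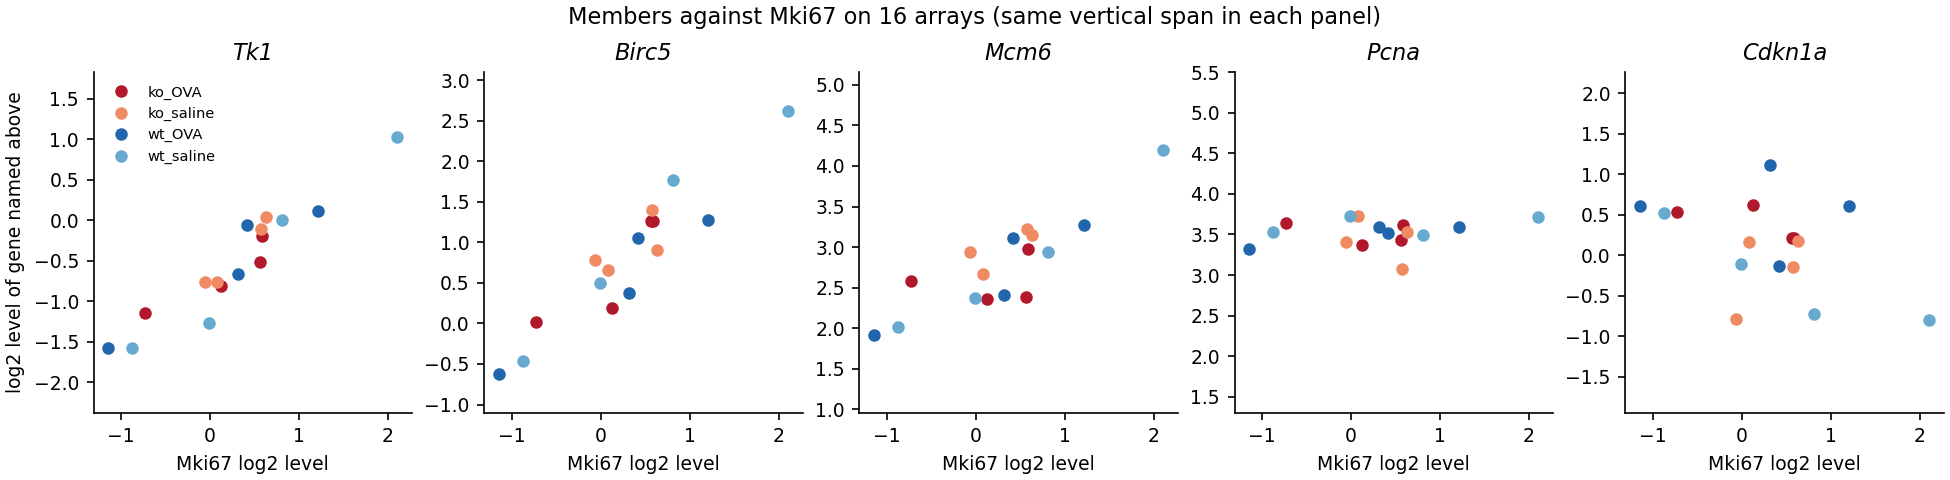
Log2 level of 5 members (vertical) against that of Mki67 (horizontal) on 16 arrays, coloured by group, with the same span on each vertical axis. Tk1, Birc5 and Mcm6 climb with Mki67 (r = 0.95, 0.94 and 0.86), Pcna is flat (r = 0.19) and Cdkn1a tends downward (r = -0.45, and -0.15 without wt_saline 2 and wt_OVA 2).

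Other genes of the same pathways were taken from further lists. Of 44 other DNA replication and S phase genes 40 were tested, of 59 other mitosis genes 43, and of 37 other regulators 30. In wt, the medians of OVA against saline were -0.01, -0.18 and 0.06, with 21 of 40, 29 of 43 and 12 of 30 lower. Without wt_saline 2 these medians were 0.16, 0.04 and 0.02, with 8 of 40, 14 of 43 and 13 of 30 lower. An r of at least 0.8 with Mki67 was reached by 4 of 39, 14 of 43 and 0 of 30 of them. Of all these, 1 gene was called in any comparison, and the comparison was OVA over both genotypes, in which 6.46% of all genes were called. Melk, a kinase linked to proliferation, read 1.12, 0.24, 0.95 and 0.87 in ko_OVA, 0.18, 0.01, 0.24 and 0.55 in ko_saline, 0.86, 1.34, 1.21 and 0.49 in wt_OVA, and -0.10, 0.17, 0.65 and 0.56 in wt_saline. It was higher after OVA over both genotypes by 0.60 ± 0.16 (SE; limma adjusted p = 0.0391), although the arrays of OVA and saline overlapped. With slide as a block the difference was 0.48 with an adjusted p of 0.0801, and without wt_saline 2 it was 0.58 with 0.0811. Melk did not rise with Mki67. Its r with Mki67 was -0.42, the lowest of the 43 other mitosis genes tested, and this r was given no test. The highest Melk value, 1.34, came from wt_OVA 2, where Mki67 was lowest at -1.14. On wt_saline 2, where Mki67 was highest at 2.11, Melk read 0.17. The r of Melk without these arrays was not tested.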

How the data were processed

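Brushed airway epithelium of 16 samples was labelled with Cy3 from 0.5 ug of RNA, per the labels' protocols. The deposited scanner files hold spot intensity and processed intensity after background subtraction, made with Feature Extraction, which is 10.5.1.1 in the file headers but 10.1 per the submitters' processing notes. Flags per spot come from the same deposited files. The deposited series table holds log2 values and served as an alternative. On 4 arrays (wt_OVA 2, wt_OVA 3, ko_saline 4 and ko_OVA 3) 1.03% to 10.0% of processed signals equalled the background-subtracted signal within 0.01, against 96.0% to 99.6% on the other arrays.

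Outlier spots were left out, repeated spots averaged, and signals divided by the array's 75th percentile, floored and log2 transformed. The filter kept 25615 of 41174 probes, those with a signal well above background on 4 arrays or more. The brightest probe stood for a gene, named through RefSeq accessions (GRCm38.p6), which matched 24844 probes; the arrays were designed on an older build, so no probe position is given. All 16 arrays were fitted in limma 3.58.1 (R 4.3.3) with 1 mean per group and Benjamini-Hochberg adjustment over 18566 genes. Correlations with Mki67 used numpy 2.4.6, with ranks and adjustment from scipy 1.17.1, under Python 3.11.15. Those between probes of a gene used R. The fit was tested on simulated data. The number of arrays limits the precision.

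The members and lists were chosen with earlier results of these data known. The rule for values per array took Mki67, Top2a, Pcna, Cdkn1a, Ccnd1 (named only), any member called (there were none) and the 2 members of each role with the smallest p for OVA over both genotypes; dim members among them are given by their range or highest value. Alternatives were scaling, background correction, floor, filter, probe rule, slide, position and replicate blocks, the series table, the groups fitted and each array left out. The use of the background-subtracted signal and the list medians without wt_saline 2 were added after seeing the data.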

Additional observations from a re-analysis of the deposited data

Results flagged for a closer look

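In groups of 4 arrays, 6 values stood apart from the other 3 by Dixon's criterion. It was applied to 20 sets of values in each of 4 groups. Its rate of about 1 in 20 by chance does not hold for values tied at the floor, where any single value above the floor stands apart. The count of 6 is therefore not set against an expected number. All 6 belong to genes at or near the floor of -3.32. On wt_OVA 1, Cdc45 read -2.74, Bub1b -2.87 and Kif11 -2.88, with the other wt_OVA arrays at the floor. On ko_OVA 3, Bub1b read -3.25 and Top2a -2.78, and Top2a on the other ko_OVA arrays was at -3.27 or below. On ko_saline 4, Top2a read -2.52. The array wt_OVA 1 also had the highest share of probes well above background, at 74.5%, and its part in these values was not tested.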

How the results depend on the processing

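The count of members called was 0 in all 7 comparisons and stayed 0 under every other normalization, floor, filter, probe rule and block tried. Leaving out 1 array at a time gave 0 to 1 for OVA in wt and 0 to 2 for OVA over both genotypes, where the values above 0 came without wt_saline 3; the cause was not tested. With the replicate number as a block the count was 0 in each comparison. Same-numbered arrays of different groups deviated together no more than others (median r -0.01 over 24 pairs of the same number and over 72 of different numbers), so the numbers were not taken as pairs. For 7 of 16 arrays the best match in another group had their own number, a count that was not tested. The difference of DNA replication from mitosis genes in the change with OVA was 0.21 to 0.46 in wt and -0.18 to 0.01 in ko when single arrays were left out. Of the results for OVA over both genotypes, Cdkn1a differed by 0.52 to 1.07 (limma adjusted p 0.0278 to 0.530 over 28 settings) and Tyms by -0.45 to -0.22 (0.0152 to 0.388). Melk lost its call under 16 alternatives, with adjusted p 0.0173 to 0.419 over 28 settings. Scaling to the median left 100 genes called for OVA in wt and normexp left 130, against 485, so counts over all genes depend on these choices. Dim signal limits 13 members, which lay at the floor on 1 or more arrays, so a change below the floor was not detectable.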
